A study of Mus musculus with 6 samples.

Results

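The neutrophil genes described here are 35 named genes that mark the stages of neutrophil formation, read in the order azurophil granule, specific granule, gelatinase granule and mature cell. They were selected on measured differences between the genotypes of this study, so their fold changes and calls describe the selection and are no test of it. A probe was found for 34 of the 35 genes, out of 23462 genes that the array named here, and no probe was matched to Olfm4. These 34 genes were covered by 42 probes, 8 genes having 2 probes and 26 genes having 1.

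RNA was measured in microglia, the resident macrophages of the brain, sorted as live CD45lo CD11b+ Cx3cr1+ cells from Percoll-enriched brain suspensions of young C57BL/6 mice, which the study's legends give as 3 months old. The control samples (B41HET, n = 3) carried 1 Bhlhe41 dTomato-Cre allele and the B41KO samples (n = 3) carried 2, so the controls were heterozygous rather than wild type and both genotypes expressed dTomato and Cre from the Bhlhe41 promoter. In this germline allele a reporter cassette placed before the start codon ends translation of Bhlhe41, a transcriptional repressor of the basic helix-loop-helix family. Each sample pooled the cells of several mice and was hybridised to 1 single-colour array.

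Neutrophils form in the bone marrow from myeloblasts through promyelocytes, myelocytes and metamyelocytes, and each stage makes a different set of storage granules. Azurophil granules, filled with myeloperoxidase and serine proteases, are made first, then the specific granules with lactoferrin and other antimicrobial proteins, then the gelatinase granules, and surface receptors and cytosolic proteins come last. Mature neutrophils contain the proteins of all granules but have largely stopped transcribing the genes of the first, and the healthy brain tissue holds very few of these cells.

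The 250 bases before the start site of 5 members are printed first, because these genes mark the ends of the range of differences: the specific granule genes Ngp and Ltf, which fell most among the members' brightest probes, and the azurophil genes Mpo, Elane and Prtn3, of which Prtn3 alone was called lower. The sequences are from RefSeq on the GRCm38.p6 build, all on the plus strand and written 5′ to 3′, at chr9:110419558-110419807 (Ngp), chr9:111019042-111019291 (Ltf), chr11:87793534-87793783 (Mpo), chr10:79886062-79886311 (Elane) and chr10:79879417-79879666 (Prtn3). Capitals mark matches, on either strand, to a motif of the C/EBP factors (TTNNGNAA) or of PU.1 (GAGGAA), both families of myeloid transcription factors. The third motif searched, the class B E-box CACGTG that Bhlhe41 and related factors recognise, had no match in these 5 windows.
Ngp: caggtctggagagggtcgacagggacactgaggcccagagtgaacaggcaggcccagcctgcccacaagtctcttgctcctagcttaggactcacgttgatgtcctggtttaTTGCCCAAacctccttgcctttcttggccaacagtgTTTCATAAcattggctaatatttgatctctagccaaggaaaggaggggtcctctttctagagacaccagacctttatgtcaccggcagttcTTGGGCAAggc
Ltf: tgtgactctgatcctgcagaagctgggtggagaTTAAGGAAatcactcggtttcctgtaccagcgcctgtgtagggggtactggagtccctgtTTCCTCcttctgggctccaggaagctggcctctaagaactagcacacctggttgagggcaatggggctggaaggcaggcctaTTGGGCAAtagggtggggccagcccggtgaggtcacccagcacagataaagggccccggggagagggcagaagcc
Mpo: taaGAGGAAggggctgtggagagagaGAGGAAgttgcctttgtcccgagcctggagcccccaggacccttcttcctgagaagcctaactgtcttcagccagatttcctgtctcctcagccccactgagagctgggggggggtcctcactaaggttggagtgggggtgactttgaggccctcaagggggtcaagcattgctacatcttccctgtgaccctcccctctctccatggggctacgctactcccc
Elane: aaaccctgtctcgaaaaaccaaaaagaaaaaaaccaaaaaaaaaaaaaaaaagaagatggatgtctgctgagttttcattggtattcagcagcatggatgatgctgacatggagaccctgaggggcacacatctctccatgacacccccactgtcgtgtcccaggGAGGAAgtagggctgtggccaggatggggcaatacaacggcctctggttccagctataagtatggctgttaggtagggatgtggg
Prtn3: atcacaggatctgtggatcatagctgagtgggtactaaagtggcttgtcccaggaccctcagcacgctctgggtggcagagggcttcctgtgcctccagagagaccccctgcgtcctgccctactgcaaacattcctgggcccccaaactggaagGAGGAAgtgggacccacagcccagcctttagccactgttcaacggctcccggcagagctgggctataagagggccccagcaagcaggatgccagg

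The Ngp window held 3 C/EBP matches and no PU.1 match, and the Ltf window held 2 C/EBP matches and 1 PU.1 match. The 3 azurophil windows held no C/EBP match, with 2 PU.1 matches in Mpo and 1 each in Elane and Prtn3. Prtn3 and Elane are neighbours on chromosome 10, their starts 6645 bases apart on the same strand. Promoters were listed for 31 of the member genes (32 promoters), among them the unmeasured Olfm4 and overlapping windows of Ly6g. The C/EBP letters were found in 21 of the 32 (65.6%) against 36.8% of all 32851 promoters of that length, and by stage in 1 of 5 azurophil genes (Ms4a3), 7 of 9 specific granule genes and 11 of 16 mature neutrophil genes. The PU.1 letters were found in 18 of the 32 (56.3%) against 23.3% of all promoters. The E-box was found in 2 of the 32 (6.25%), those of Il1r2 and Slpi, against 6.02% of all promoters. Some of the E-boxes at which the paper tested Bhlhe41 binding lie farther upstream than 250 bases. The share therefore says nothing on sites beyond this window. The C/EBP and PU.1 letters can overlap, which they did in 0 of the 32 member promoters, and a match is a description of the letters and not of a bound site.

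Signal intensities were quantile normalized on the log2 scale, and each gene is given by its brightest probe unless another is named. A probe was called when limma's Benjamini-Hochberg adjusted p over all 56601 probes was 0.05 or less and the absolute log2 fold change 0.5 or more. Fold changes are B41KO minus B41HET on the log2 scale, with limma's standard error (SE) and n = 3 samples a genotype. Signals of different probes are not compared as transcript levels, because each probe has its own brightness.

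Of the 34 genes measured, 27 were called lower in B41KO, 0 were called higher and 7 were not called. Over all named genes 4.01% were called lower and 1.44% were called higher, and since this contrast chose the members, the excess is a property of the choice. The median log2 fold change was -1.75 over the members and 0.01 over all 23462 genes. Under normexp, another background correction, the members' median was -0.99, and called genes whose values it moved by over 1.5 times are given with both values below. All 3 B41KO samples lay below all 3 B41HET samples in 29 of the 34 genes, an arrangement seen in 18% of all genes, and above them in 1, Mpo, the reverse arrangement being seen in 14.2% of all genes. At the level of probes, 35 of the 42 were called lower, against 3.34% of all probes. Ranked from the lowest fold change among 23462 genes, 13 members were among the first 50, 19 among the first 100 and 21 among the first 200. In samples of many cells, fewer cells of a type and less RNA per cell cannot be told apart, which holds for each difference below.

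**Figure D1:**
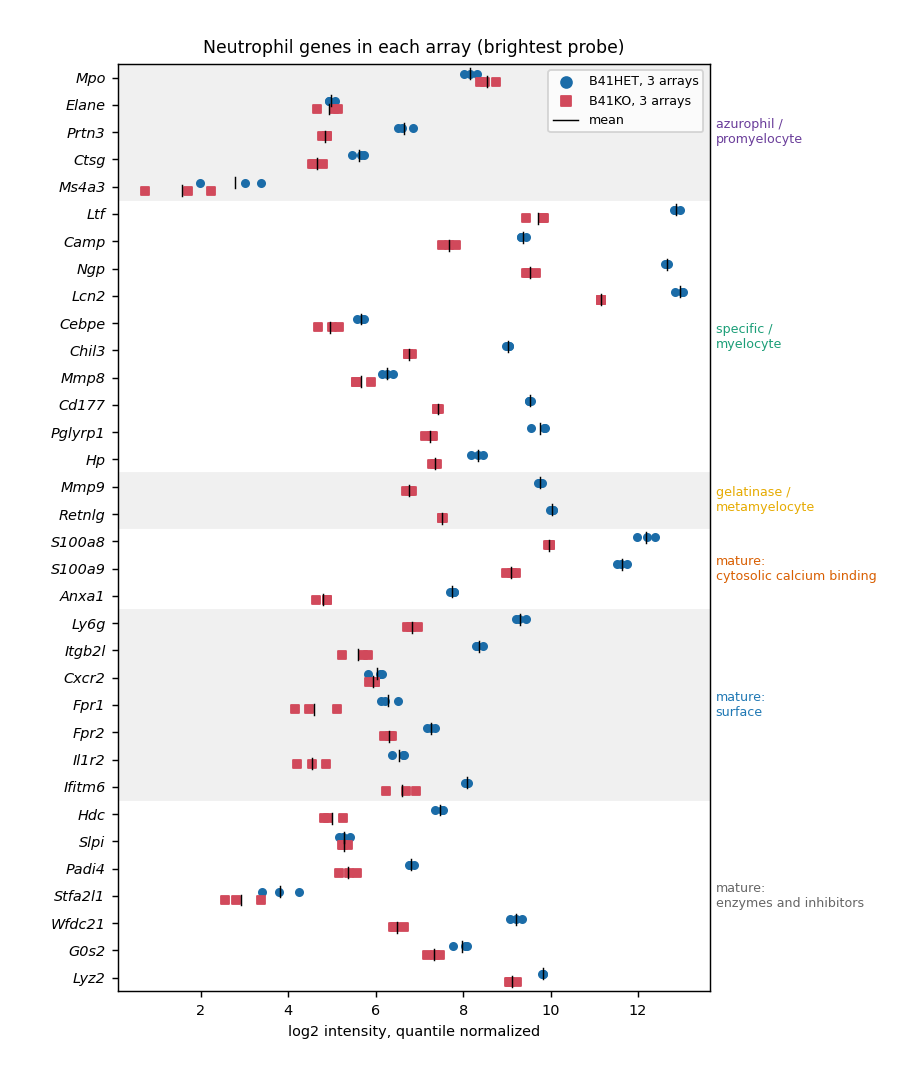
Quantile-normalized log2 intensity (x axis) of the brightest probe of each of the 34 genes (y axis, ordered by stage) in each array; blue circles are the 3 B41HET arrays, red squares the 3 B41KO arrays and black ticks the means. The B41KO squares lie to the left of the B41HET circles for 29 genes, to the right for Mpo, and are mixed with them for Elane, Ms4a3, Cxcr2 and Slpi.

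The azurophil and promyelocyte genes, the first to be made, did not move as 1 group: 2 of 5 were called lower, and their median log2 fold change was -0.97 (-0.08 with normexp and -0.50 with probes near background filtered out). Mpo, which encodes myeloperoxidase, measured 8.02, 8.32 and 8.15 in the B41HET samples and 8.49, 8.39 and 8.75 in the B41KO samples. The B41KO samples were the higher ones, without overlap, by 0.39 (SE 0.13), which was not called. Elane, neutrophil elastase, measured 4.93, 5.07 and 4.92 in B41HET and 5.13, 4.65 and 5.04 in B41KO. Here the genotypes overlapped, with a difference of -0.04 (SE 0.14).

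Prtn3, the gene of proteinase 3 next to Elane, had log2 signals of 6.85, 6.52 and 6.61 in B41HET and of 4.78, 4.88 and 4.88 in B41KO. Every B41KO sample was lower, by 1.63 at the nearest pair, and the fold change was -1.81 (SE 0.11), leaving 28.5% of the control signal. With normexp it was -0.91. Ctsg, which encodes cathepsin G of the same granule, read 5.72, 5.67 and 5.45 against 4.55, 4.59 and 4.80. It fell without overlap as well, with a smaller fold change of -0.97 (SE 0.11), which was -0.35 and no longer called with normexp. Ms4a3, a membrane protein gene of granulocyte and monocyte progenitors, was at 1.99, 3.00 and 3.37 in B41HET and 1.71, 0.72 and 2.24 in B41KO, and only 1 B41HET array and 0 B41KO arrays showed it well above background. Its values overlapped between genotypes and bear on no direction, with a fitted difference of -1.23 (SE 0.51) that was -0.08 with normexp.

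The specific granule and myelocyte genes were called lower in 9 of the 10 measured, with a median log2 fold change of -1.95, and all 10 had B41KO below B41HET without overlap. Ltf, the gene of the iron-binding protein lactoferrin, measured 12.96, 12.82 and 12.85 in B41HET against 9.86, 9.82 and 9.44 in B41KO. Ngp, neutrophilic granule protein, measured 12.68, 12.67 and 12.62 against 9.45, 9.66 and 9.48. In both genes the B41HET samples stood close together and 2.96 log2 units above the highest B41KO sample. The fold changes were -3.17 (SE 0.13) for Ltf and -3.13 (SE 0.08) for Ngp, so that 11.1% and 11.4% of the control signal remained. These were the rank 3 and rank 5 positions from the lowest among all 23462 genes.

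Lcn2, which encodes the siderophore-binding lipocalin 2, had 2 probes. The brightest read 13.03, 13.01 and 12.84 in B41HET and 11.16, 11.15 and 11.14 in B41KO, a fold change of -1.81 (SE 0.08). The other probe had the larger fold change of -3.20 (SE 0.17). Both probes were called lower, and they differed by 1.39 in size. Lcn2 is also made by cell types other than neutrophils.

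Chil3 (a chitinase-like secreted protein also made by macrophages) measured 9.06, 9.05 and 8.99 against 6.73, 6.84 and 6.73, and Cd177, a surface partner of proteinase 3 held in specific granules, 9.56, 9.50 and 9.51 against 7.41, 7.46 and 7.40. Neither gene overlapped, and the samples of a genotype lay close together. Their fold changes were -2.26 (SE 0.07) and -2.10 (SE 0.07). Pglyrp1, a peptidoglycan recognition protein that binds bacterial cell walls, was at 9.76 ± 0.18 (mean ± SD, n = 3) in B41HET and 7.24 ± 0.10 in B41KO, a fold change of -2.51 (SE 0.12). Camp, the precursor of the antimicrobial cathelicidin peptide, went from 9.36 ± 0.07 to 7.67 ± 0.16, a fold change of -1.69 (SE 0.10). Hp, the haemoglobin scavenger haptoglobin, went from 8.33 ± 0.14 to 7.34 ± 0.05, a fold change of -0.99 (SE 0.09).

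Cebpe encodes C/EBP epsilon, the transcription factor under which specific granule genes are switched on. Its log2 signals were 5.72, 5.58 and 5.68 in B41HET and 5.15, 5.002 and 4.67 in B41KO. The B41KO samples were all lower, and the change of -0.72 (SE 0.14) was among the smallest that were called. With normexp it was -0.32 and not called. Mmp8, neutrophil collagenase, read 6.25, 6.39 and 6.13 against 5.88, 5.54 and 5.54. The genotypes did not overlap, but the difference of -0.61 (SE 0.13), although beyond the fold threshold, lay just outside the one on the adjusted p. It was -0.30 with normexp and -0.38 once slide row was blocked.

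The 2 gelatinase granule and metamyelocyte genes were both called lower. Mmp9, which encodes gelatinase B, measured 9.80, 9.77 and 9.71 in B41HET and 6.78, 6.82 and 6.68 in B41KO. Retnlg, a resistin-like secreted protein of granulocytes, measured 10.05, 10.05 and 9.99 against 7.51, 7.51 and 7.54. The samples of each genotype nearly coincided and the genotypes lay far apart. The fold changes were -2.999 (SE 0.07) for Mmp9, with -3.36 (SE 0.19) on its other probe, and -2.51 (SE 0.06) for Retnlg.

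The mature neutrophil genes numbered 17, of which 14 were called lower, with a median log2 fold change of -1.70 (-0.92 with normexp). Among them the 3 genes for cytosolic calcium-binding proteins were all called lower. S100a8 measured 12.39, 12.21 and 11.98 in B41HET and 9.98, 9.99 and 9.94 in B41KO. S100a9, whose product pairs with that of S100a8 as calprotectin, measured 11.76, 11.60 and 11.51 against 9.12, 9.21 and 8.99. In both genes the first B41HET sample was the highest and the third the lowest of its genotype, and both were far above all B41KO samples. The fold changes were -2.22 (SE 0.12) and -2.52 (SE 0.10). Anxa1, annexin A1, which limits neutrophil recruitment, read 7.78, 7.70 and 7.79 against 4.63, 4.89 and 4.89. Its 2 probes gave -2.95 (SE 0.10) and -2.88 (SE 0.11), the closest pair of probes among the members, and the first was -1.74 with normexp.

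Of the 7 surface genes, 6 were called lower. Ly6g, the antigen by which mouse neutrophils are usually sorted, measured 9.43, 9.27 and 9.21 in B41HET and 6.81, 6.96 and 6.71 in B41KO. Itgb2l, a beta 2 integrin-like gene of granulocytes, read 8.46, 8.29 and 8.32 against 5.82, 5.71 and 5.23. Neither overlapped, and the fold changes were -2.48 (SE 0.10) and -2.77 (SE 0.17). Cxcr2, the chemokine receptor through which mature neutrophils leave the marrow and enter tissue, was the exception: it measured 5.83, 6.09 and 6.13 against 5.98, 5.84 and 5.97. Its genotypes overlapped, with a difference of -0.09 (SE 0.11) that ranged from -0.18 to -0.03 with 1 sample left out.

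The receptors for formyl peptides, products of bacterial protein synthesis, were both called lower. Fpr1 read 6.21, 6.51 and 6.12 in B41HET and 5.11, 4.47 and 4.16 in B41KO. The first B41KO sample was nearest to the controls, and the fold change of -1.70 had the largest standard error of the called members (0.26) and was -0.69 with normexp. Fpr2 was at 7.26, 7.35 and 7.16 against 6.32, 6.19 and 6.38 on its brightest probe, and at 6.997, 6.98 and 6.70 against 3.73, 3.84 and 3.45 on its other probe. Both probes separated the genotypes, with fold changes of -0.96 (SE 0.09) on the first and -3.22 (SE 0.14) on the second, the widest disagreement of any pair of member probes.

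Il1r2, the decoy receptor for interleukin 1, was called lower on both probes, with fold changes of -2.01 (SE 0.19) and -1.22 (SE 0.15), the first being -0.92 with normexp. Ifitm6, a gene of the interferon-induced transmembrane family expressed in myeloid cells, had one of -1.47 (SE 0.18). For Ifitm6 the B41HET samples lay at 8.04, 8.12 and 8.09 and the B41KO samples at 6.23, 6.69 and 6.91. The first B41KO sample was the lowest here, the opposite of its place for Fpr1.

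The enzymes and inhibitors of mature neutrophils were called lower in 5 of 7. Wfdc21, a small secreted protein with a protease inhibitor fold, read 9.35, 9.22 and 9.06 in B41HET and 6.40, 6.65 and 6.43 in B41KO, without overlap. Its fold change was -2.71 (SE 0.11). Hdc, which makes histamine from histidine, had fold changes of -2.48 (SE 0.13) and -2.20 (SE 0.18) on its 2 probes, both called lower, the first being -1.45 with normexp. The second Hdc probe was well above background on 2 of the 3 B41KO arrays. Padi4, the arginine deiminase that modifies histones when neutrophils release chromatin traps, measured 6.88, 6.78 and 6.76 against 5.39, 5.57 and 5.16. Its fold changes were -1.43 (SE 0.12; -0.78 with normexp) and, on a second probe that was well above background on 1 of the 3 B41KO arrays, -2.57 (SE 0.21).

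G0s2, an inhibitor of triglyceride breakdown, and Lyz2, lysozyme M, are also transcribed by macrophages. G0s2 read 8.09, 8.03 and 7.78 in B41HET and 7.35, 7.16 and 7.48 in B41KO, and its difference of -0.64 (SE 0.13) lay just inside the threshold on the adjusted p. Lyz2 read 9.84, 9.82 and 9.80 against 9.08, 9.24 and 9.05. Both were separate between genotypes, and Lyz2 kept 61.7% of the control signal with a fold change of -0.70 (SE 0.08).

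Slpi, a secreted inhibitor of elastase and cathepsin G, was read differently by its 2 probes. Its brightest probe measured 5.16, 5.26 and 5.40 in B41HET and 5.23, 5.36 and 5.24 in B41KO, with a fold change of 0.01 (SE 0.09). Its other probe measured 5.57, 5.58 and 5.11 against 3.22, 3.41 and 3.64, was called lower and gave -1.9996 (SE 0.18). The genotypes overlapped on the first probe and were apart on the second. Stfa2l1, a stefin A inhibitor of cysteine proteases, was well above background on all 3 B41HET arrays and on 0 B41KO arrays, at 3.39, 4.23 and 3.78 against 3.37, 2.56 and 2.80. The nearest samples of the genotypes differed by 0.01. The fitted change of -0.89 (SE 0.29) was not called and ranged from -1.12 to -0.11 over the alternatives. Stfa2l1 belongs to a cluster of near-identical genes, whose transcripts 1 probe may not tell apart.

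**Figure D2:**
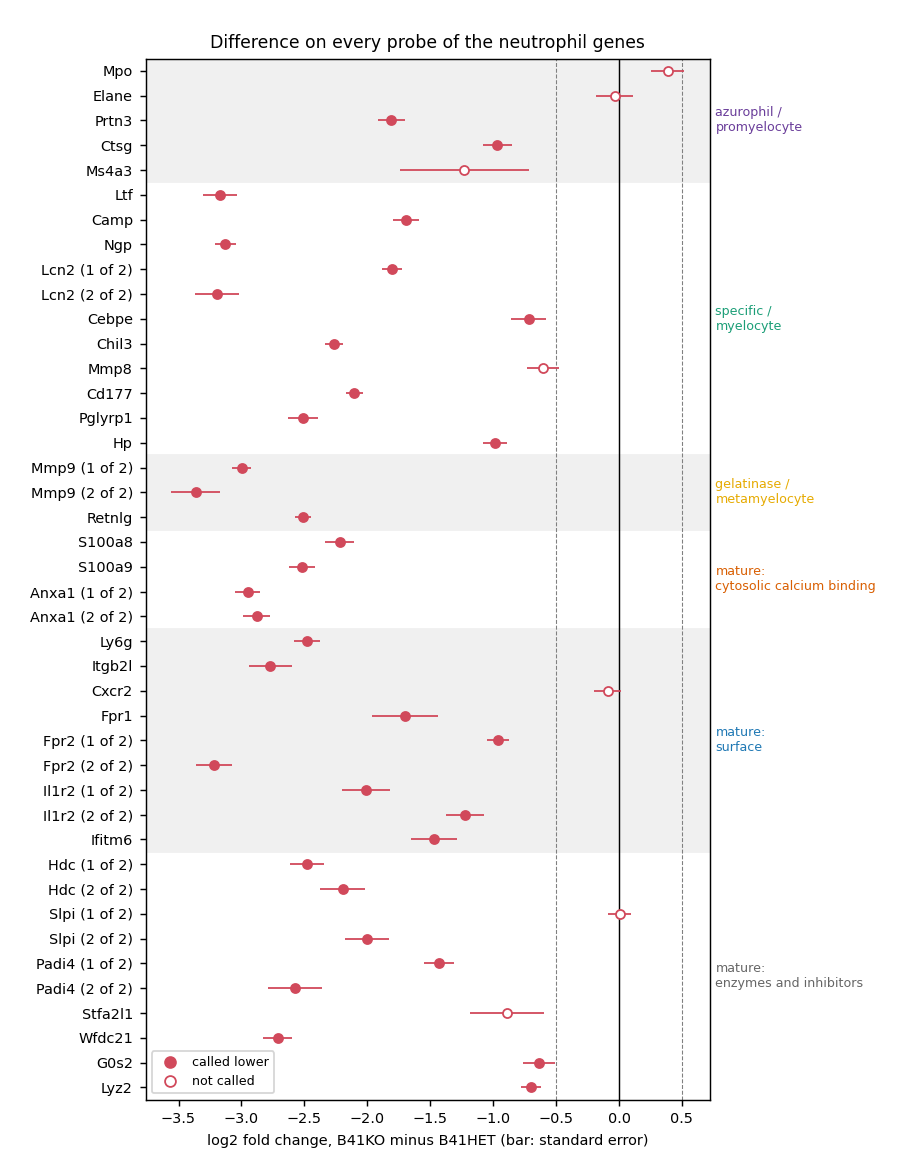
Log2 fold change, B41KO minus B41HET (x axis), of each of the 42 probes (y axis, by stage; a number in brackets ranks the probes of a gene by signal), with bars for the limma standard error, filled circles for probes called lower and dashed lines at the threshold of 0.5 in either direction. Probes of Ltf, Ngp, Mmp9, Lcn2 and Fpr2 lie at -2.999 or lower, Mpo lies farthest to the right at 0.39, and the 2 probes of Fpr2, Slpi, Lcn2 and Padi4 lie more than 1 unit apart.

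Of the 8 genes with several probes, 7 were called lower on each of them, the exception being Slpi. The difference between the probes was 2.26 for Fpr2, 2.01 for Slpi, 1.39 for Lcn2, 1.14 for Padi4, 0.78 for Il1r2, 0.36 for Mmp9, 0.28 for Hdc and 0.07 for Anxa1. Probes were ranked by their mean over all 6 arrays, so a fall in B41KO itself lowers a probe's rank. In the B41HET samples alone the second Slpi probe, with a mean of 5.42, was brighter than the first, with 5.27. Probes of 1 gene measure the same samples and are not replicates.

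Of the 34 members, 32 were well above background on all 6 arrays by the scanner software's own criterion, and 0 spots were saturated. The calls were unequal over the range of probe signal: with a B41HET mean under 6 on the log2 scale 2 of 6 members were called lower, against 1.65% of all genes in that range. Between 6 and 8 it was 8 of 10 (4.36% of all genes), between 8 and 10 it was 11 of 12 (6.05%), and from 10 upward 6 of 6 (9.75%).

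**Figure D3:**
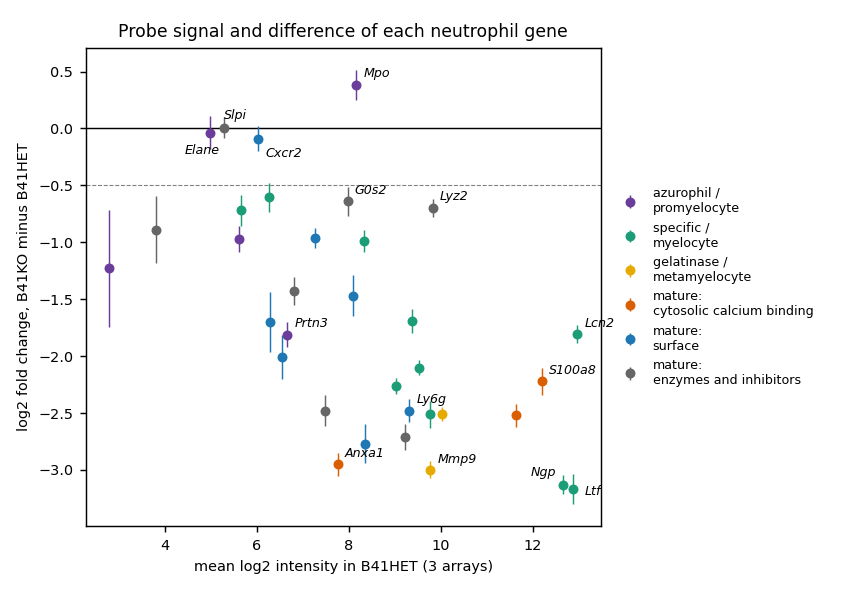
Mean log2 intensity of each gene's brightest probe in the 3 B41HET arrays (x axis) against its log2 fold change, B41KO minus B41HET (y axis, bars are the standard error), coloured by stage, with a dashed line at -0.5. The 6 genes at 10 or more on the x axis all lie at -1.81 or lower, Mpo lies highest at 0.39, and Elane, Slpi and Cxcr2 sit near 0 at signals of about 5 to 6.

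The order of the samples within a genotype, a measure that the selection did not use, was uneven over the members. The first B41HET sample was the highest of the 3 for 20 of the 34 genes, the second for 10 and the third for 4. Over all genes these shares were 35.2%, 30.2% and 34.7%. The third B41HET sample was the lowest for 21 of the 34, and for 34.7% of all genes. The deviations were small: the median over the members was 0.03, 0.03 and -0.05 for the 3 B41HET samples. In B41KO the second sample was the highest for 16 genes, the first for 10 and the third for 8 (31.9%, 32.8% and 35.5% of all genes), with median deviations between -0.03 and 0.06. The median SD over the members was 0.107 in B41HET and 0.136 in B41KO, beside 0.126 and 0.137 over all genes. Summed on the linear scale, the members' signals ranged from 37077 to 41560 in the B41HET samples and from 8226 to 8699 in the B41KO samples. Most of these sums came from the probes of Lcn2, Ltf, Ngp, S100a8 and S100a9. Unlike the order within a genotype, the gap between the sums restates the contrast that chose the members.

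**Figure D4:**
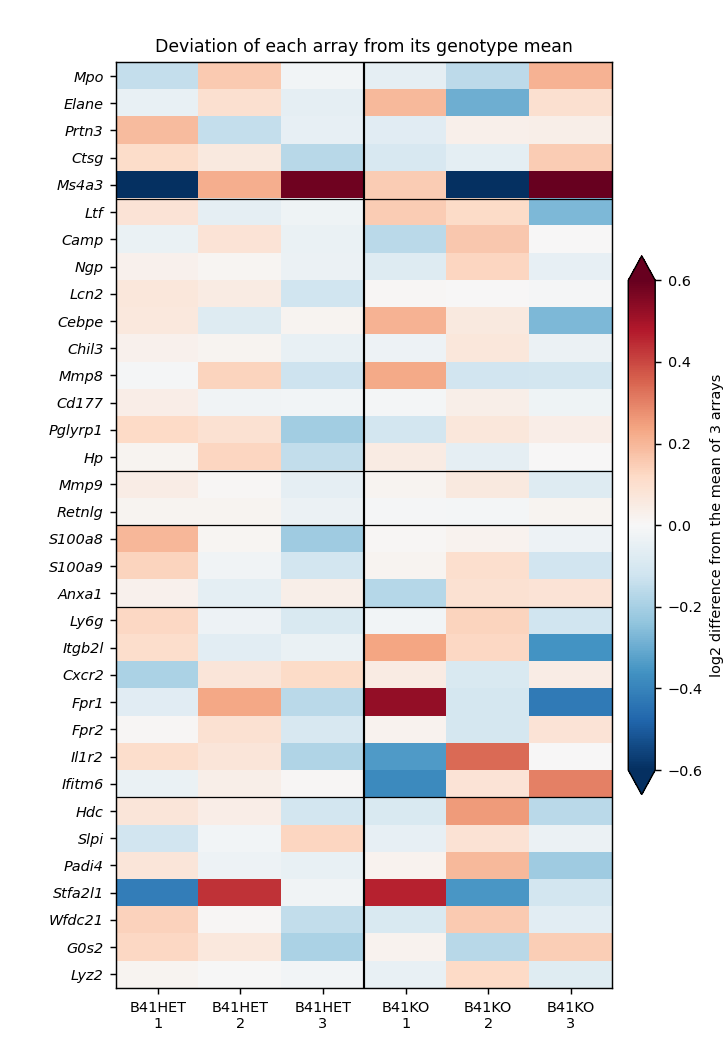
Difference of each array from the mean of its own genotype (colour, log2 units, limited to ±0.6) for the 34 genes (rows, by stage, divided by lines) in the 6 arrays (columns, genotypes divided by a line). The third B41HET column is blue for most genes, in which it was the lowest for 21 of 34, and the strongest colours belong to the dim genes Ms4a3 and Stfa2l1 and to Fpr1, Ifitm6, Itgb2l and Il1r2 in B41KO.

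The cassette of the allele holds a polyadenylation signal and ends translation of Bhlhe41, and where the Bhlhe41 probes lie relative to it was not known here, so the transcript was no check of the labels. On its brightest probe it measured 7.95, 7.87 and 7.65 in B41HET and 8.56, 7.84 and 8.21 in B41KO, a difference of 0.38 (SE 0.20, limma Benjamini-Hochberg adjusted p 0.330). A second probe differed by 0.33 (SE 0.13, limma adjusted p 0.203). With the slide row as a block the first differed by 0.74, with normexp by 0.25. Between 70.0% and 75.5% of the 56605 probes were well above background on each array, and 95 to 136 spots an array carried an outlier flag. The arrays lay on 1 slide, with the 3 B41HET arrays and the first B41KO array in row 1 and the other B41KO arrays in row 2. Within row 1 the first B41KO array was below all 3 B41HET arrays for 30 of the 34 members, an order seen in 33% of 23448 genes, and the median difference of the members was -1.85. With the row as a block 19 members were called lower, and Ctsg, Cebpe, Hp, Fpr1, Fpr2, Padi4, G0s2 and Lyz2 lost the call.

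Further genes of neutrophils and related myeloid cells, also listed with earlier results known, were called lower in 12 of 39 and higher in 2, with a median log2 fold change of -0.33 beside 0.01 over all genes. The lower ones were Trem3 (-3.16, SE 0.39), an activating receptor, Fcnb (-2.39, SE 0.24), a ficolin of granulocytes, Serpinb1a (-2.34, SE 0.08), an inhibitor of neutrophil proteases, Lrg1 (-2.33, SE 0.09), Ceacam10 (-2.13, SE 0.32), Cybb (-2.08, SE 0.08), the catalytic subunit of the phagocyte oxidase, Clec4d (-1.80, SE 0.35), Asprv1 (-1.27, SE 0.11), Top2a (-1.07, SE 0.13), Itgal (-1.05, SE 0.08), Ceacam1 (-0.998, SE 0.12) and Alox5ap (-0.87, SE 0.08). Ptafr (1.08, SE 0.10), the receptor of platelet-activating factor, and Fcgr4 (0.67, SE 0.08) were called higher. Top2a and Mki67 (-0.42, SE 0.10, not called), also on this list, are genes of dividing cells in general. In B41KO, Trem3 and Fcnb were well above background on 2 of the 3 arrays and Ceacam10 and Clec4d on 1, so their fold changes rest in part on values near the floor.

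Of those called, Cybb, Itgal, Alox5ap, Ptafr and Fcgr4 are also expressed by other myeloid cells. Some of the 25 not called are named here after their values were seen. The receptor of granulocyte colony-stimulating factor, Csf3r, differed by 0.03 and the integrin gene Itgam by -0.03. Both are also expressed by other myeloid cells, and Itgam encodes CD11b, on which the cells of all samples were sorted. The transcription factor genes Cebpa differed by -0.07, Cebpb by 0.16, Cebpd by 0.10 and Gfi1 by -0.10. Spi1, which encodes PU.1, differed by -0.39 and the integrin gene Itgb2 by -0.38. Spi1 and Itgb2 passed the threshold on the adjusted p but not the one on the fold change. No probe was matched to BC100530, and Clec4e, Prok2 and Stfa1 were well above background on no array.

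All 12 markers of the labelled cell type, microglia, were well above background on at least 1 array, with a summed signal of 170637 to 185585 in B41HET and 168378 to 175696 in B41KO. Of these, Fcrls (-0.76, SE 0.06) was called lower, and the median was -0.01. Markers of other blood cells and of brain border cells moved with the members in part. Of the monocyte markers 3 of 10 were called lower, Ly6c2 (-2.10, SE 0.08), Plac8 (-2.68, SE 0.49) and F13a1 (-1.92, SE 0.35), with summed signals of 87597 to 95314 in B41HET and 84277 to 100448 in B41KO, most of it from the Ms4a4c probe. Of the 3 B41KO arrays, 2 showed Plac8 well above background and 1 showed F13a1 so. Of the border macrophage markers 5 of 10 were called lower (Cd163, Cbr2, Pf4, Ms4a7 and F13a1), all 10 had a fold change under 0, and the sums, mostly from the Stab1 probe, were 2550 to 2751 against 1774 to 1933.

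Eosinophil markers were called lower in 2 of 7 (Ear1 and Ear2, the latter well above background on 0 B41KO arrays, sums of 875 to 907 against 724 to 790) and dendritic cell markers in 2 of 8 (Clec10a and Cd209a, sums of 378 to 433 against 239 to 262, Xcr1 never well above background). Endothelial markers were called lower in 2 of 10 (Ly6c1 and Pecam1, sums of 1360 to 1440 against 620 to 694). Most of the B41HET sum came from the probes of Ly6c1 and Pecam1. Not called were Cldn5 (-0.13), Kdr (-0.01), Slco1a4 (0.04) and Vwf (0.33), while Cdh5, Flt1 and Tek were well above background on no array. B cell markers were called lower in 1 of 10 (Cd79a, sums of 2326 to 2668 against 2371 to 2444, Ms4a1 never well above background), and mast cell and basophil markers in 1 of 8 (Gata2, which with Cpa3 and Ms4a2 was never well above background, sums of 2145 to 2462 against 2228 to 2637, mostly from the Tpsb2 probe).

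Stem and progenitor cell markers (8 measured, Mycn never well above background) had 0 called, with sums of 6002 to 6594 against 5116 to 5331, most of it from the Cd34 probe, and a median of -0.03, and so had T and NK cell markers (8 measured, Cd3g never well above background), with sums of 1425 to 1450 against 1645 to 1755, most of it from the Cd4 probe, and a median of 0.08. Erythroid markers went the other way, with 0 of 8 called lower and 3 called higher, Hbb-bt (1.36, SE 0.10), Hba-a2 (1.33, SE 0.07) and Alas2 (0.55, SE 0.09), and with sums of 147393 to 152246 against 150467 to 169239, most of it from the Hemgn probe. The part of these other cells in the neutrophil gene differences was not tested.

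**Figure D5:**
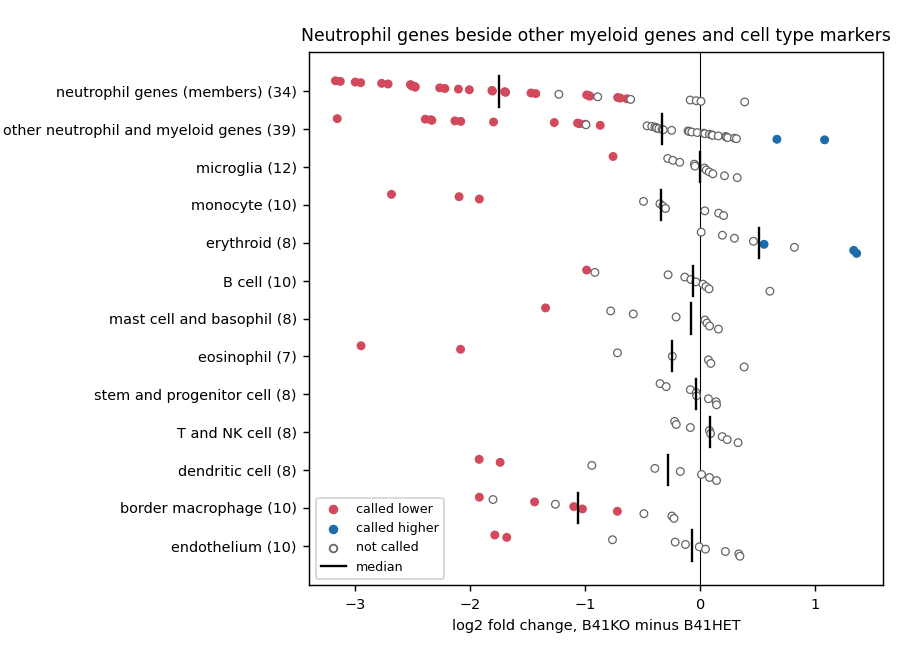
Log2 fold change, B41KO minus B41HET (x axis), of the 34 members and of each gene of the other lists (y axis, number of genes in brackets), each gene by its brightest probe; red is called lower, blue called higher, white not called, and the black line is the median of a list. The members' median is -1.75, that of border macrophage markers -1.06, and that of microglia markers -0.01, while erythroid markers have the 1 median above 0.5 (0.51).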

How the data were processed

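Total RNA of 3 B41HET and 3 B41KO samples, labelled with Cy3, was hybridised to SurePrint G3 mouse arrays. The deposited scanner files hold spot intensity from Feature Extraction 11.5.1.1, and the authors also deposited a table of processed log2 values, used as an alternative. Control spots (leaving 59305 of 62976) and outlier spots were left out. log2 processed intensity was quantile normalized, spots of a probe were averaged, and genotype was fitted with limma 3.58.1 in R 4.3.3 (lmFit, eBayes) with Benjamini-Hochberg adjustment over 56601 probes. The fit was tested on simulated data. Probes were named through transcript accessions and RefSeq (33767 probes, 59.7%), and the brightest probe over the 6 arrays stood for a gene. All listed members and Bhlhe41 were to be named, and of other lists those called lower and the 2 of highest signal, which are given here only where a result turned on them. The members, gene lists and motifs were chosen with earlier results of these data known. Precision is limited by 3 arrays a genotype. The labels call the samples biological replicates. Alternatives were the 75th percentile shift, the authors' values, a filter on dim probes (3 arrays well above background), normexp (offset 50, on median signals), outlier spots kept, trend and robust variance, replicate and slide row blocks, each sample left out, probe means, no fold threshold and the dimmest probe.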

Additional observations from a re-analysis of the deposited data

How the results depend on the processing

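Of 27 members called lower, 9 (Ltf, Ngp, Chil3, Cd177, Mmp9, Retnlg, S100a9, Anxa1 and Ly6g) were called lower under all 17 alternatives, and 0 members were called higher under any. Leaving out 1 sample gave 21 to 25 called lower and a median of -1.81 to -1.72. Cebpe lost its call under 10 alternatives, G0s2 under 9, Fpr1 under 7, Ctsg under 6, Ifitm6 under 5 and Lyz2 under 4. Among these, Ctsg, Cebpe, Fpr1, Ifitm6, G0s2 and Lyz2 lost it without B41HET replicate 1 or 2 (21 called lower each), Cebpe, Fpr1, Ifitm6 and G0s2 without B41HET replicate 3 (23), Cebpe and G0s2 without B41KO replicate 1 (25), Ctsg, Cebpe, Fpr1, Ifitm6 and G0s2 without B41KO replicate 2 (22), and Cebpe, Fpr1 and G0s2 without B41KO replicate 3 (24). Mmp8 gained a call with the authors' values, the filter on dim probes, the trend and robust variance and the probe means. Ms4a3 was -0.81 without B41KO replicate 2. The members' median moved to -0.99 with normexp, -1.91 with probe means and -2.05 with the dimmest probe, an alternative chosen after seeing the data. The azurophil median was -0.08 with normexp and -0.50 with the filter on dim probes, and that of the mature genes -0.92 with normexp, -2.002 with probe means and -2.20 with the dimmest probe.

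Elane reversed to 0.068 with the 75th percentile shift, 0.012 with normexp and 0.16 with the slide row block, and ranged from -0.13 to 0.11 with 1 sample left out. Slpi reversed to -0.044 with the slide row block, -0.997 with probe means and -1.9996 on its dimmest probe, and ranged from -0.052 to 0.070 with 1 sample left out. The cause was not tested. Whether the replicate numbers pair the samples was not given. Correlations of deviations were 0.03, 0.01 and 0.05 for the same number and between -0.05 and 0.03 for different numbers. With 3 samples a genotype these values cannot exclude a pairing. With the replicate block 9 members were called lower, and over all probes 40 were called lower and 2 higher, beside 1892 and 975 without it. Over all probes the slide row block gave 260 lower and 184 higher, normexp 1077 and 423, and leaving out 1 sample 550 to 1024 and 242 to 513. The 75th percentile shift moved the median of all probes from 0.02 to 0.13 and the calls to 1534 lower and 1297 higher. Bhlhe41 ranged from 0.20 (without B41KO replicate 1) to 0.56 with 1 sample left out and was 0.74 with the slide row block. With 3 arrays a genotype, genes near the threshold or near background (Ms4a3, Stfa2l1) had values too imprecise to place.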
